A study of Mus musculus with 15 samples.

Results

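The transcripts of 6 STAT transcription factors (Stat2, Stat3, Stat4, Stat5a, Stat5b and Stat6) and of 3 SOCS family inhibitors (Socs1, Socs3 and Cish) were followed in mouse bone marrow-derived macrophages (BMDMs) across 5 conditions. The 9 genes were taken by name from a table of 51763 genes, and all 9 were among the 16919 genes with enough counts to be tested. BMDMs are macrophages grown from bone marrow in M-CSF, here from wild-type female C57BL/6NTac mice of 8 to 10 weeks, and each condition had 3 libraries of poly(A) RNA collected after 24 h. PBS was the unstimulated control, frHMGB1 and dsHMGB1 are the fully reduced and the disulfide form of the nuclear alarmin HMGB1 (both at 5 µg/mL), LPS is bacterial lipopolysaccharide at 1 µg/mL, and LPS/IFNγ is LPS with 20 ng/mL interferon-γ. The LPS dose in LPS/IFNγ was 100 ng/mL in the protocol text and 1 µg/mL in the treatment field of the labels, so this condition may differ from LPS in more than the addition of IFNγ. Cells of 5 mice were pooled before seeding, and the p-values below therefore measure the spread between cultures and libraries of a single pool, not between animals.

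Cytokines that bind type I and type II cytokine receptors activate receptor-bound JAK kinases, which phosphorylate STAT proteins. Paired STATs then enter the nucleus and bind their target genes. STAT2 acts with IRF9 in the response to type I interferon, STAT3 carries signals of IL-6 and IL-10, STAT4 those of IL-12, STAT5A and STAT5B those of GM-CSF and related cytokines, and STAT6 those of IL-4 and IL-13. SOCS1, SOCS3 and CIS (encoded by Cish) are SH2-domain proteins that are themselves induced by STATs and that dampen the receptor or the JAK. Phosphorylation, the step that activates a STAT, is not seen in RNA.

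The libraries held between 40934540 and 80925478 counts. The macrophage markers Adgre1, Csf1r, Cd68, Itgam, Lyz2, Mertk and Fcgr1 summed to 13100 to 27000 counts per 1000000 library counts (CPM) in every library. The sum was highest in frHMGB1 (26800 to 27000) and lowest in LPS/IFNγ (13100 to 13500), and Lyz2 was its largest part. The markers did not move together. In LPS/IFNγ 3 of the 7 were called higher than PBS and 2 lower, beside 29% and 31.2% of all tested genes. PBS replicate 3 stood apart from the other PBS libraries (Pearson r of 0.944 and 0.939 with them, against 0.998 between them), and it had the lowest PBS value of Stat2, Stat3, Stat5a, Stat5b, Stat6, Socs3 and Cish. A fold change below is DESeq2's, with its standard error (SE), and an adjusted p is from edgeR's quasi-likelihood test, Benjamini-Hochberg adjusted over the 16919 genes. A gene was called where that p was under 0.05. Over all tested genes the median log2 fold change lay between -0.211 (LPS over PBS) and 0.0206 (dsHMGB1 over frHMGB1). When libraries were scaled by their total counts instead, fold changes over PBS were lower by 0.354 (dsHMGB1), 0.632 (LPS) and 0.658 (LPS/IFNγ) in the median over genes on the log2 scale of edgeR, so a small rise depends on the scaling and is given both ways below. In bulk RNA, fewer cells expressing a gene and less RNA per cell cannot be told apart.

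Against PBS, the genes split by stimulus. In frHMGB1 1 of the 9 was called higher (Socs3) and none lower, beside 1.31% of all tested genes higher and 5.69% lower. In dsHMGB1 7 of 9 were higher, with Stat4 and Stat6 not called, beside 23.3% higher and 24.2% lower over all genes. In LPS 8 of 9 were higher, with Stat4 not called, beside 26.7% and 36.2%. In LPS/IFNγ all 9 were higher, beside 29% and 31.2%, with the call of Stat4 resting on few counts and lost in several alternatives given below. No member was called lower than PBS in any of the 4 stimulations by edgeR or DESeq2, and at an unadjusted p under 0.05 edgeR gave 1, Stat4 in frHMGB1. Of all genes called by edgeR, those higher than PBS made up 49% in dsHMGB1, 42.5% in LPS and 48.2% with LPS/IFNγ, against 28.1%, 21.9% and 25.3% after total-count scaling, which called 6, 7 and 7 of the members. The median log2 fold change of the 9 genes over PBS was 4.58 for LPS, 4.24 for LPS/IFNγ, 2.84 for dsHMGB1 and 0.23 for frHMGB1. The study used a log2 fold change of 2 as its cutoff, which 5 members exceeded in dsHMGB1, 6 in LPS, 8 in LPS/IFNγ and 0 in frHMGB1, where Stat4, not called, lay below -2.

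**Figure D1:**
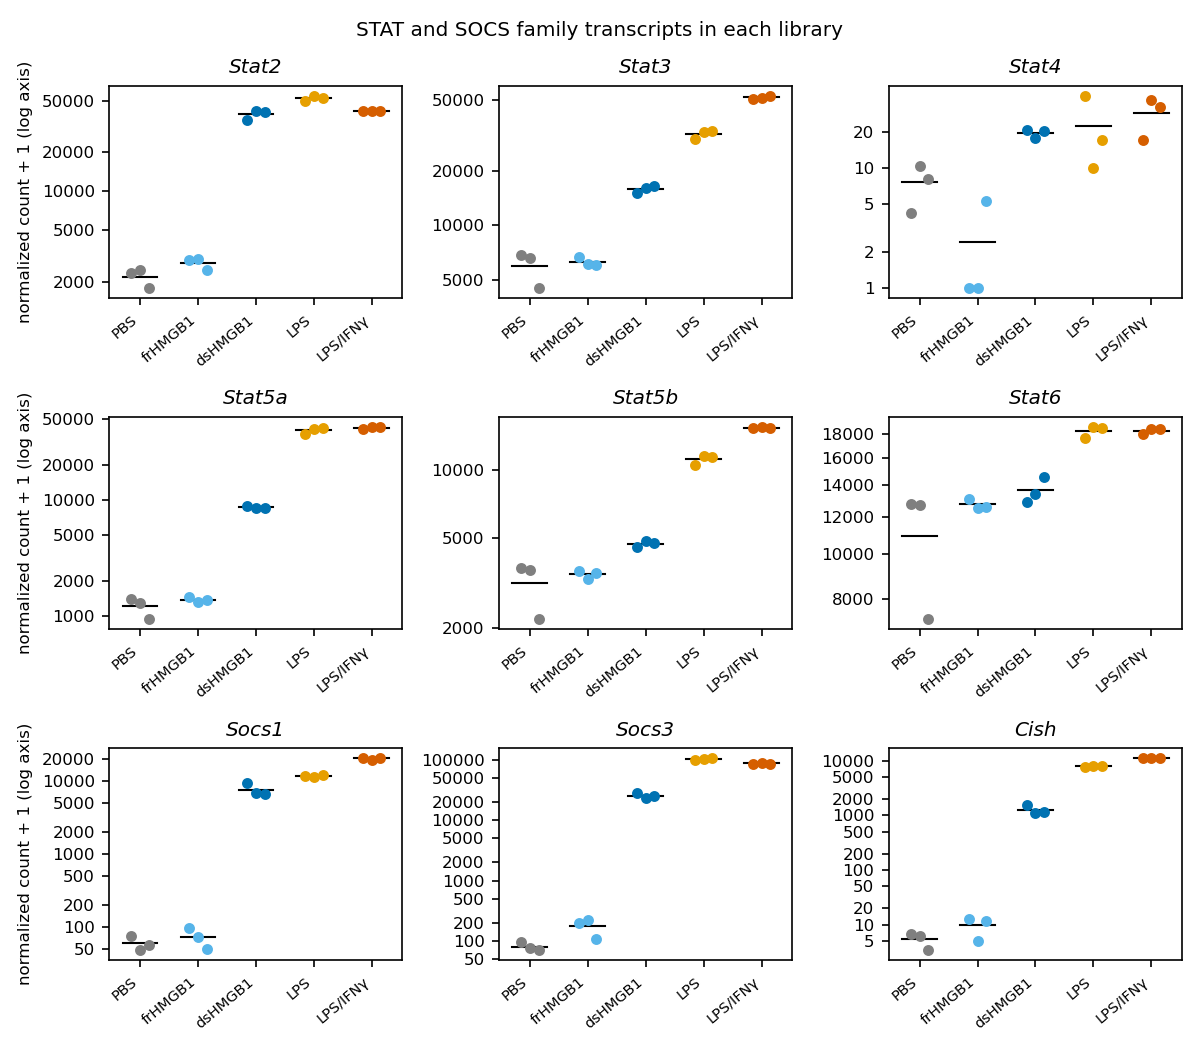
Normalized count plus 1 (log axes, each with its own range) of the 9 genes in each of the 15 libraries; each point is a library and each bar the mean of the 3 libraries of a condition. Stat2, Stat3, Stat5a, Stat5b, Socs1, Socs3 and Cish separate PBS and frHMGB1 from the other conditions without overlap. Stat6 varies least, and Stat4 lies below 40 normalized counts throughout.

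Stat2, the partner of IRF9 in type I interferon signalling (chr10:128270559-128292849, GRCm38, plus strand), was the most strongly raised STAT in dsHMGB1. Its normalized counts were 2347, 2473 and 1782 in PBS and 2967, 2988 and 2492 in frHMGB1, then 35898, 41494 and 41205 in dsHMGB1, 50020, 54913 and 52867 in LPS and 41701, 41806 and 41519 in LPS/IFNγ. The last 3 conditions lay far above the first 2 with no overlap. The log2 fold change over PBS was 4.17 (SE 0.13, a 17.9-fold rise, adjusted p = 8.89e-11) in dsHMGB1, against 4.58 for LPS and 4.24 for LPS/IFNγ. The libraries of dsHMGB1 all lay below those of LPS and LPS/IFNγ, but neither difference was called (adjusted p = 0.0653 and 0.798), and neither was that between LPS/IFNγ and LPS (0.125). With DESeq2's test in place of edgeR's, dsHMGB1 was called lower than LPS (adjusted p = 0.00808) and LPS/IFNγ lower than LPS (0.039). edgeR also called both in fits of the 2 groups alone (adjusted p = 0.00298 and 5.59e-08). In edgeR's fit of all libraries, the order LPS, LPS/IFNγ, dsHMGB1 is separated only from frHMGB1 and PBS, which were not called different from each other (0.156).

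The 300 bases around the RefSeq start of Stat2 (chr10:128270248-128270547, GRCm38.p6, plus strand) are shown because the window holds the letters of an interferon-stimulated response element core, in capitals, the kind of site that STAT2 complexes bind.
Stat2: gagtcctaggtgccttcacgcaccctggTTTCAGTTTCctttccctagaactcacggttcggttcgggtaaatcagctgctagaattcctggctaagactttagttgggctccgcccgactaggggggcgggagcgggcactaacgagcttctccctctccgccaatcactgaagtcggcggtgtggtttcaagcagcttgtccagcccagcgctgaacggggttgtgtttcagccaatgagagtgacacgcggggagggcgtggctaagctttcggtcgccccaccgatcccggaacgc
The core searched was TTTC, 2 bases of any kind and TTTC, on either strand, and its first base here is at -222 from the start. It occurs in 3.44% of 32851 RefSeq promoter windows of the same length, and a match of letters is not evidence of binding.

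Stat3, the STAT of IL-6 and IL-10 (chr11:100885098-100939540, minus strand), rose in steps across the conditions. Its normalized counts were 6873, 6569 and 4456 in PBS, 6632, 6130 and 6012 in frHMGB1, 15190, 16097 and 16579 in dsHMGB1, 30341, 33140 and 33593 in LPS and 50417, 51237 and 52645 in LPS/IFNγ. PBS and frHMGB1 overlapped (adjusted p = 0.843), and every later step was called without overlap: dsHMGB1 over frHMGB1 (log2 fold change 1.35, adjusted p = 6.83e-06), LPS over dsHMGB1 (2.03-fold, adjusted p = 0.000316) and LPS/IFNγ over LPS (1.59-fold, adjusted p = 0.00295). Over PBS the rise was 2.67-fold in dsHMGB1, 5.42-fold in LPS and 8.62-fold in LPS/IFNγ.

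Stat5a and Stat5b, neighbouring genes on chromosome 11 (100859351-100885169, plus strand, and 100780731-100850724, minus strand) with closely related products, responded to different extents. Stat5a had 1397, 1282 and 924 normalized counts in PBS, 1457, 1311 and 1361 in frHMGB1, 8914, 8448 and 8494 in dsHMGB1, 37316, 40936 and 41575 in LPS and 40904, 42444 and 43036 in LPS/IFNγ. dsHMGB1 formed a level of its own, 7.16-fold above PBS (SE of the log2 fold change 0.133, adjusted p = 2.98e-09) and 4.63-fold below LPS (adjusted p = 2.85e-07). LPS (33.2-fold over PBS) and LPS/IFNγ (35.0-fold) overlapped and did not differ by the test (adjusted p = 0.61).

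Stat5b had 3687, 3630 and 2187 normalized counts in PBS, 3591, 3310 and 3493 in frHMGB1, 4560, 4857 and 4759 in dsHMGB1, 10537, 11461 and 11374 in LPS and 15230, 15486 and 15306 in LPS/IFNγ. The dsHMGB1 libraries all lay above those of PBS, by 1.49-fold (log2 fold change 0.58, SE 0.166, adjusted p = 0.0147), yet this call was lost when libraries were scaled by total counts (log2 fold change 0.183, adjusted p = 0.464). It was kept without PBS replicate 3, with a smaller log2 fold change of 0.367. The rise over PBS was 3.51-fold in LPS (adjusted p = 1.18e-06) and 4.84-fold in LPS/IFNγ (adjusted p = 9.79e-08). LPS/IFNγ exceeded LPS 1.38-fold without overlap (adjusted p = 0.0426), a call that was lost on leaving out any 1 of the 6 libraries compared (lowest adjusted p 0.128). dsHMGB1 and frHMGB1 did not overlap but were not called different by edgeR (0.0503), whereas DESeq2 called them (0.0179). edgeR called them in a fit of the 2 groups alone (adjusted p = 0.000319).

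The ratio of Stat5a to Stat5b per length of exon, taken within a library and so independent of the scaling between libraries, turned around. It was 0.294, 0.274 and 0.328 in PBS and 0.315, 0.307 and 0.303 in frHMGB1, against 1.52, 1.35 and 1.39 in dsHMGB1, 2.75, 2.77 and 2.84 in LPS and 2.09, 2.13 and 2.18 in LPS/IFNγ. Stat5b transcripts thus outnumbered those of Stat5a per length in every library of PBS and frHMGB1, and the reverse held in every library of the other conditions. With the longest transcript as the length, the mean ratio was 0.507 in PBS and 2.41 in dsHMGB1, so the side of 1 did not depend on that choice. The genes share 608 exonic stretches of 50 bases (8.21% of those of Stat5a and 11% of those of Stat5b), and how reads from them were assigned is not given in the sources used here. Stat3 and Stat5a also overlap at 72 exonic bases on opposite strands.

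Stat6, which carries the IL-4 and IL-13 signals of alternative macrophage activation (chr10:127642986-127660957, plus strand), varied least. Its normalized counts were 12783, 12696 and 7244 in PBS, 13100, 12553 and 12609 in frHMGB1, 12929, 13446 and 14609 in dsHMGB1, 17692, 18694 and 18588 in LPS and 18002, 18479 and 18500 in LPS/IFNγ. LPS and LPS/IFNγ lay above the other conditions, each 1.68-fold over PBS (adjusted p = 0.00515 and 0.00371), and dsHMGB1 was not called (0.178). Without PBS replicate 3, which lay far below the other PBS libraries, the log2 fold changes were 0.517 and 0.516 and still called. Both calls ended with scaling by total counts, where the log2 fold changes were 0.0179 (adjusted p = 0.947) and 0.0297 (0.908). In CPM, Stat6 stood at 300.5, 299.7 and 135.7 in PBS and at 243.9, 252 and 249.4 in LPS, so LPS lay below 2 of the 3 PBS libraries on that scale. No neighbours in the order of the 5 conditions differed by edgeR's test in the fit of all libraries (adjusted p from 0.155 to 0.915). In fits of the 2 groups alone, edgeR called dsHMGB1 lower than LPS (adjusted p = 0.00163) and than LPS/IFNγ (0.000555).

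Stat4, the STAT of IL-12 signalling and best known from T and NK cells (chr1:51987148-52107189, plus strand), was close to the limit of detection. Its normalized counts were 3.23, 9.46 and 7.04 in PBS, 0, 0 and 4.31 in frHMGB1, 19.6, 16.9 and 19.3 in dsHMGB1, 38.8, 8.96 and 16.2 in LPS and 15.9, 35.8 and 31.1 in LPS/IFNγ. They rested on 26, 4, 68, 47 and 83 raw counts summed over the 3 libraries of each condition in that order. Stat4 was tested only because of its levels in the last 3 of these conditions, which limits its calls over PBS and frHMGB1. dsHMGB1 and LPS/IFNγ did not overlap with PBS, while LPS did. By edgeR the call over PBS was made in LPS/IFNγ alone (log2 fold change 2.07, SE 0.663, adjusted p = 0.0213). The ratio of summed counts per size factor was 4.26 (95% exact counting interval 2.71 to 6.89). The call was lost without PBS replicate 1 (0.0758), without LPS/IFNγ replicate 2 (0.0746) or replicate 3 (0.0593), and with total-count scaling (0.0919). It was also lost in edgeR's test of a fold above 2 (0.0967), and Stat4 was not tested under a filter of 1 CPM in 3 libraries. In LPS edgeR's adjusted p was 0.0587, a call gained without PBS replicate 2 (0.0496), PBS replicate 3 (0.048) or LPS replicate 2 (0.0323) and with DESeq2's test (0.0237), and in dsHMGB1 it was 0.0961. Among markers of T, NK and B cells, Cd3e, Cd3g, Cd3d, Cd8a and Ncr1 had 0 counts in all libraries. The 11 markers together, mostly Cd4, summed to 15.5 to 16.8 CPM in LPS, 16.6 to 18.5 in LPS/IFNγ and 18.8 to 23 in dsHMGB1, against 16 to 35.9 in PBS. Cd247, a chain of the T cell receptor complex, went the other way. Its mean normalized counts were 0 in PBS, 4.57 (SD 4.83) in frHMGB1 and 72.5 in dsHMGB1, then 109 in LPS and 158 in LPS/IFNγ. Cd247 was tested only because of its levels in the last 3 of these conditions. Its calls over PBS, made in all 4 stimulations, are therefore no support for a change. Cd4 and Klrb1c were not called against PBS in any of the 4. The Stat4 values of the last 3 conditions overlapped between neighbours, with no call by edgeR (adjusted p = 0.899 between LPS and dsHMGB1, 0.724 between LPS/IFNγ and LPS). The part of other cells in the Stat4 values was not tested. Another locus, Gm28177, shares 26.7% of the exonic bases of Stat4 on the same strand and had 0 to 9 counts per library.

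Compared per length, as transcripts per 1000000 transcripts (TPM), the make-up of the STAT pool differed between the conditions. Stat6 made up 58.4% ± 2.10 (SD, n = 3) of the TPM of the 6 STAT genes in PBS and 59.8% ± 0.62 in frHMGB1, but 23.0% ± 0.76 in dsHMGB1, and it fell to 17.3% ± 0.28 in LPS and to 16.5% ± 0.06 in LPS/IFNγ. Stat2 held 8.99% ± 1.10 in PBS and became the leading STAT in dsHMGB1 (49.3% ± 1.44), LPS (36.9% ± 0.53) and LPS/IFNγ (27.8% ± 0.41). Stat5a held 4.05% in PBS and 8.97% in dsHMGB1, and 23.3% and 23.4% in LPS and LPS/IFNγ. Stat3 held 14.3% to 15.9% in the PBS libraries and 13.5% ± 0.28 in frHMGB1, less in dsHMGB1 (12.4% ± 0.18), 14.1% ± 0.21 in LPS, and the most in LPS/IFNγ (21.4% ± 0.24). Stat4 never exceeded 0.0618% in a library. These shares are a description, since 3 libraries against 3 cannot reach an exact permutation p below 0.10. With the length of the longest transcript, Stat6 held 54.2% in PBS and Stat2 49.0% in dsHMGB1. The leading STAT changed with that length in LPS/IFNγ, where Stat5a (29.2%) stood above Stat2 (26.0%).

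**Figure D2:**
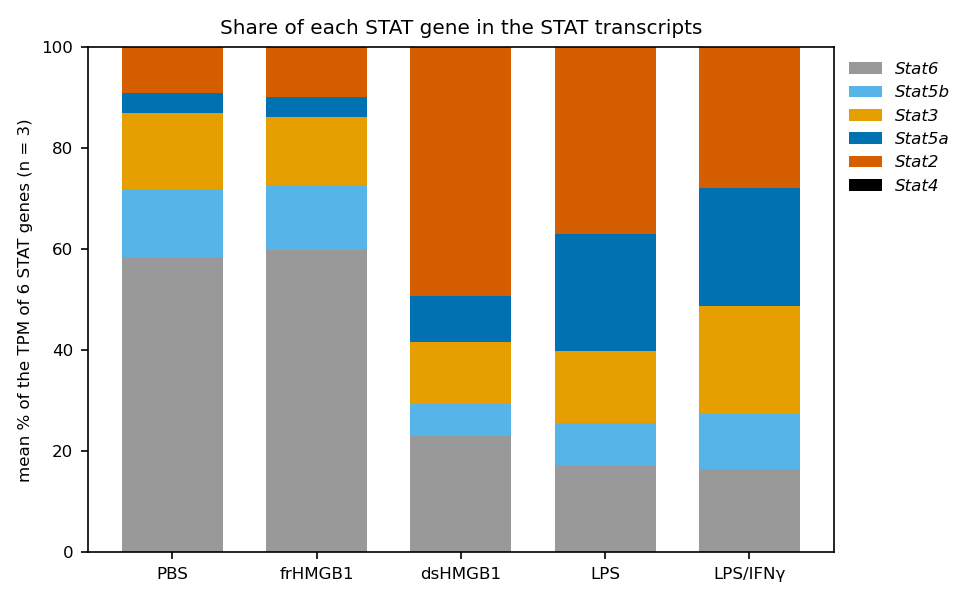
Mean share of each of the 6 STAT genes in their summed TPM (percent, n = 3 libraries per condition, bars stacked to 100). Stat6 falls from 58.4% in PBS to 23.0% in dsHMGB1, while Stat2 goes from 8.99% to 49.3%; Stat4 is too low to be visible.

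The 3 SOCS family inhibitors had the largest fold changes of the 9 genes in dsHMGB1, LPS and LPS/IFNγ. The RefSeq start regions of all 3 are shown because each holds letters of a STAT-type or interferon-type site, in capitals: TTCNNNGAA (GAS, the palindrome bound by most STAT dimers) in Socs3 and Cish, and the response element core (TTTC, 2 bases of any kind, TTTC), read on the other strand, in Socs1, where 2 cores overlap.
Socs1: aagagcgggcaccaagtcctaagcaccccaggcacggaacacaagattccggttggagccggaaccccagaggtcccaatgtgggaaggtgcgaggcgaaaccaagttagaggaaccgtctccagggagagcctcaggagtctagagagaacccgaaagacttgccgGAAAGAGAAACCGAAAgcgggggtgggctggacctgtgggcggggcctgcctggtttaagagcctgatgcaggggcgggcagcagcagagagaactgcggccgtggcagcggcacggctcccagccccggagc
Socs3: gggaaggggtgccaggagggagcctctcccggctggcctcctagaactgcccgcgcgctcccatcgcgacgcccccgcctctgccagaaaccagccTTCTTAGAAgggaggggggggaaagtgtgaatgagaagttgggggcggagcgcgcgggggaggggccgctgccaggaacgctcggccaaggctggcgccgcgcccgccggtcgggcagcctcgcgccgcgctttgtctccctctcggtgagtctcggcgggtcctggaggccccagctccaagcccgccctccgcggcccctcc
Cish: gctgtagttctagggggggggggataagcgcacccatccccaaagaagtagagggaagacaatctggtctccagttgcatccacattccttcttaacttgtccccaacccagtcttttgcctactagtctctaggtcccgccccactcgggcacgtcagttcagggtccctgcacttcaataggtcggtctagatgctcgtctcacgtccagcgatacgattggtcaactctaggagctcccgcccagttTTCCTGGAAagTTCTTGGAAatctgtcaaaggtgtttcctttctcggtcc
The windows are chr16:10785487-10785786 (minus strand), chr11:117969317-117969616 (minus strand) and chr9:107296409-107296708 (plus strand) in GRCm38.p6, each from 250 bases before to 50 after the start. GAS occurs in 8.3% of the 32851 promoter windows. Its first base lies at -154 in Socs3 and at 1 and 12 in Cish, and the cores in Socs1 begin at -83 and -77. Among the STAT genes, Stat2 and one of the windows of Stat4 held a core (-97 in Stat4), one window of Stat5a held the letters of a kB motif, which occur in 8.46% of windows, and no window of Stat3, Stat5b or Stat6 held any of the 3.

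Socs1, an inhibitor of JAK kinases and of interferon signalling (chr16:10782240-10785536, minus strand), had normalized counts of 75.0, 46.7 and 56.3 in PBS and 95.2, 71.6 and 48.5 in frHMGB1. It had 9350, 6990 and 6739 in dsHMGB1, 11698, 11594 and 12256 in LPS and 21168, 19917 and 21095 in LPS/IFNγ. PBS and frHMGB1 overlapped (adjusted p = 0.592). dsHMGB1 stood 129-fold over PBS (log2 fold change 7.01, SE 0.218, adjusted p = 1.03e-10), LPS 199-fold and LPS/IFNγ 348-fold. LPS/IFNγ was 1.75-fold over LPS (adjusted p = 0.0062), a call kept when any 1 library was left out. dsHMGB1 lay 1.54-fold below LPS without overlap (adjusted p = 0.0475), and this call was lost on leaving out any 1 of the compared libraries other than dsHMGB1 replicate 1, and with total-count scaling (0.313).

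Socs3, the inhibitor that acts on IL-6 family receptors (chr11:117966079-117970047, minus strand), was the one gene of the 9 called in frHMGB1. Its normalized counts were 93.1, 75.7 and 68.0 in PBS and 194, 224 and 107 in frHMGB1, so that every frHMGB1 library lay above every PBS library. The log2 fold change was 1.14 (SE 0.221, 2.20-fold, adjusted p = 0.00437). It remained called when any 1 library was left out, but not in a fit of the 6 PBS and frHMGB1 libraries alone (adjusted p = 0.254). The values in the other conditions were of another order, at 28444, 23804 and 25312 in dsHMGB1, 100350, 104118 and 109936 in LPS and 87721, 89551 and 87863 in LPS/IFNγ. These were 325-fold, 1320-fold and 1110-fold over PBS (adjusted p = 3.27e-11, 4.82e-12 and 5.08e-12). dsHMGB1 was 4.05-fold below LPS (adjusted p = 1.27e-05) and 3.42-fold below LPS/IFNγ (1.52e-05). LPS/IFNγ lay below LPS without overlap and without a call in the fit of all libraries (0.495). In a fit of the 2 groups alone edgeR called it lower (adjusted p = 2.43e-06).

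Cish, which encodes CIS, an inhibitor of STAT5 signalling (chr9:107296026-107302784, plus strand), rose from near 0. Its normalized counts were 5.82, 5.05 and 2.35 in PBS and 11.8, 4.09 and 10.8 in frHMGB1, then 1571, 1105 and 1139 in dsHMGB1, 7817, 8020 and 8174 in LPS and 11073, 11332 and 11418 in LPS/IFNγ. The PBS level rested on 19 counts in all, so the fold is loosely bounded. Cish was tested only because of its levels in dsHMGB1, LPS and LPS/IFNγ, which limits its calls over PBS as stated above. The ratio of summed counts per size factor was 264 in dsHMGB1 (95% exact counting interval 169 to 439), 1680 in LPS (1070 to 2790) and 2370 in LPS/IFNγ (1510 to 3930). All 3 were called (adjusted p = 6.43e-11, 4.53e-12 and 3.06e-12), and frHMGB1 was not (0.276). dsHMGB1 stood 6.30-fold below LPS (adjusted p = 8.01e-07). LPS/IFNγ was 1.41-fold over LPS (0.0483), a call lost on leaving out any 1 of the 6 libraries (lowest adjusted p 0.143). The antisense locus Gm17041 had 0 counts in every library and Gm17040, on the opposite strand, at most 14.

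**Figure D3:**
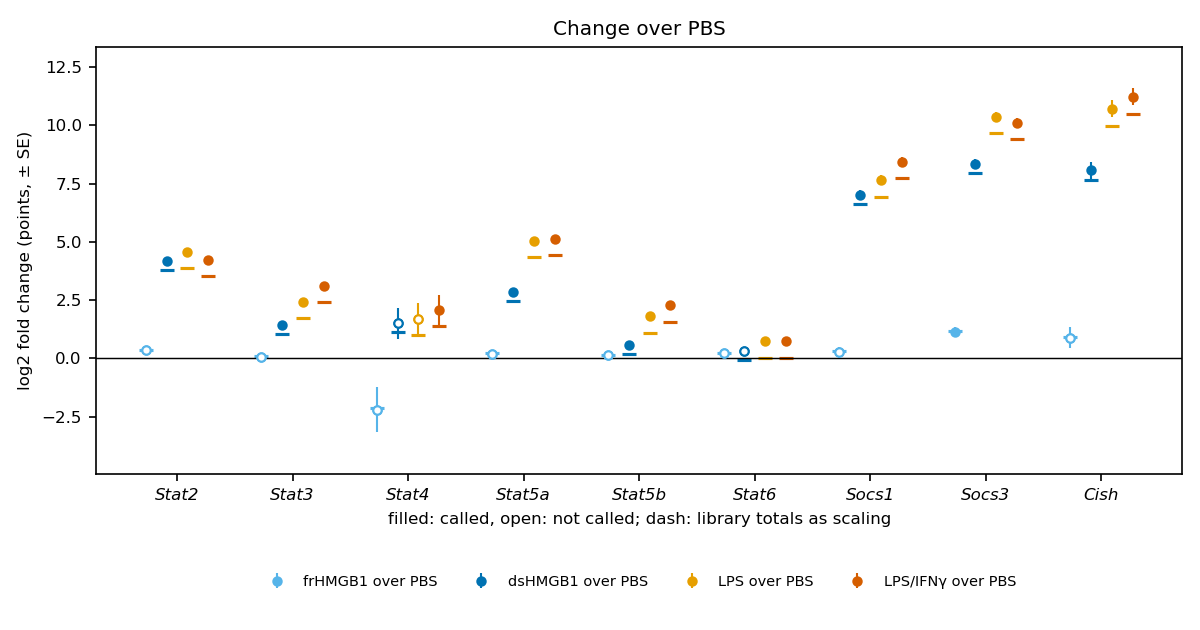
Log2 fold change over PBS of the 9 genes in frHMGB1, dsHMGB1, LPS and LPS/IFNγ (points with bars of ± 1 SE from DESeq2; filled where edgeR's test called the gene, open where it did not), with a dash for the value after scaling by total counts. Socs1, Socs3 and Cish lie above 7 in the last 3 conditions, and the dashes of Stat6 lie at about 0.

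Per length, Socs3 was the most abundant of the 3 inhibitors. Its mean TPM rose from 1.83 in PBS and 4.21 in frHMGB1 to 484 with dsHMGB1, 1383 with LPS/IFNγ and 1488 with LPS. Socs1 stood at 1.34 and 1.72 in the first 2 of these, at 143 with dsHMGB1, 322 with LPS/IFNγ and 167 with LPS. Cish stood at 0.0483 and 0.0961, and then at 10.7, 79.4 and 51.2. The ratio of Socs3 to Socs1 within a library ran from 8.63 to 9.03 in LPS, the highest, and from 4.17 to 4.52 in LPS/IFNγ. It was lower with dsHMGB1 (3.06 to 3.78), frHMGB1 (2.05 to 3.15) and PBS (1.22 to 1.63), and of these ranges those of dsHMGB1 and frHMGB1 overlapped.

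Stimulations were also compared with each other. dsHMGB1 was above frHMGB1 in 7 of 9 members (all but Stat5b and Stat6), beside 27.7% of all genes higher and 23.1% lower, with a member median of 3.71 (higher calls were 54.6% of all calls, and 34.5% with total-count scaling). That median is the value of Stat4, which rested on 4 raw counts in frHMGB1. Stat4 and Cish are in the count of 7 but were tested only because of their levels in dsHMGB1, LPS and LPS/IFNγ. Against LPS, dsHMGB1 had 0 members higher and 6 lower (Stat3, Stat5a, Stat5b, Socs1, Socs3 and Cish), beside 15.8% higher and 10.6% lower. Against LPS/IFNγ it had 0 higher and the same 6 names lower, beside 16.5% and 16.7%. Higher calls made up 59.9% and 49.8% of all calls in these comparisons, and 84% and 74.3% with total-count scaling, under which 5 and 6 members were lower. In neither comparison did DESeq2 call a member higher, nor did edgeR at an unadjusted p under 0.05. In fits of the 2 groups alone edgeR called 8 and 7 members, with Stat6 lower in both and Stat2 lower against LPS. The member medians were -1.02 and -1.69, beside 0.0153 and 0.0106 over all genes. Of the 6, Stat5a, Socs3 and Cish were furthest below LPS, by 4.63-fold, 4.05-fold and 6.30-fold, and Stat2 and Stat6 were within 1.34-fold of it. These comparisons share their dsHMGB1 libraries and are therefore not independent. LPS/IFNγ over LPS had 4 members higher (Stat3, Stat5b, Socs1 and Cish) and 0 lower, beside 16.3% and 9.36%. Stat3 and Socs1 remained with each library left out and Stat5b and Cish did not. In the fit of all libraries no member was lower by edgeR after adjustment, whereas 1, Stat2, was at an unadjusted p under 0.05 and was called by DESeq2. In a fit of the 2 groups alone edgeR called Stat2 (adjusted p = 5.59e-08) and Socs3 (2.43e-06) lower. frHMGB1 was below LPS in 8 members and below LPS/IFNγ in 9, beside 25.5% and 33.8% of all genes. The ninth was Stat6 (log2 fold change -0.52, adjusted p = 0.0308), a call lost on leaving out any 1 of the 6 libraries compared (0.0639 to 0.0807) and turned to a log2 fold change of 0.203 by total-count scaling. With that scaling, higher calls rose from 52.3% and 47.3% of all calls to 76.9% and 69%. Stat4 and Cish are among the 8 and the 9 members, with the limit given above. Under a filter of 1 CPM in 3 libraries Stat4 was not tested, nor against LPS with the 2 groups alone.

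**Figure D4:**
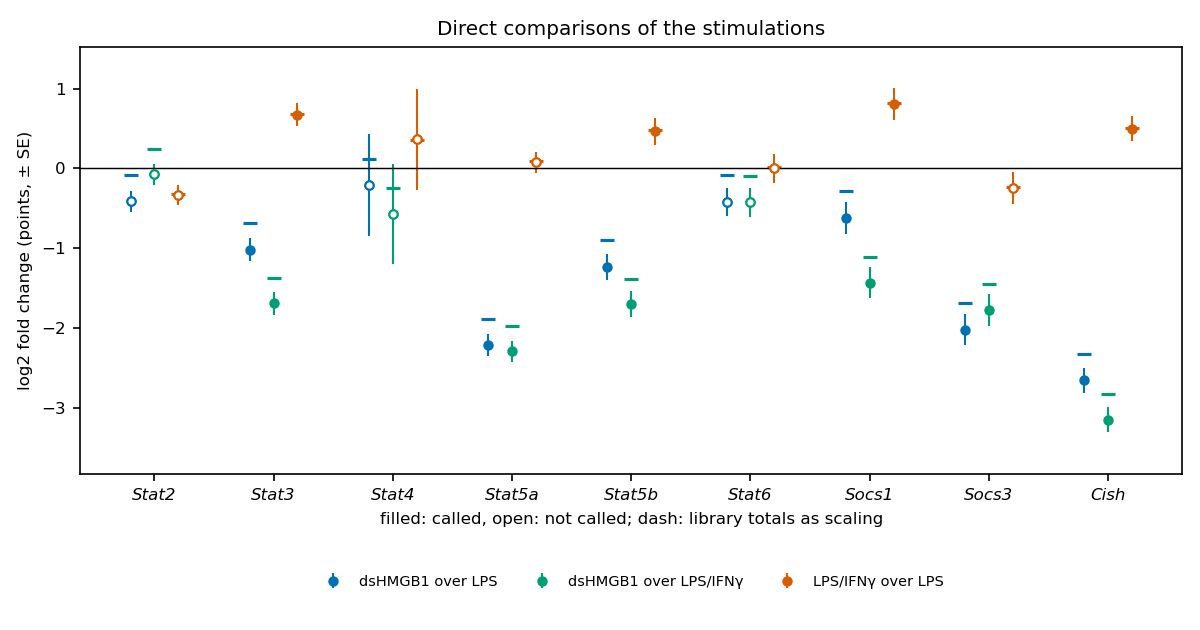
Log2 fold change of the 9 genes in dsHMGB1 over LPS, dsHMGB1 over LPS/IFNγ and LPS/IFNγ over LPS (points with bars of ± 1 SE, filled where called), with a dash for the value after scaling by total counts. Stat5a, Socs3 and Cish lie furthest below 0 in dsHMGB1 against LPS (-2.21, -2.02 and -2.65), and Stat2 lies near 0 against LPS/IFNγ (-0.08, or 0.25 with total counts).

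Genes that act before and after the STATs were described from lists of pathway members, beside medians over all tested genes of -0.103 (dsHMGB1 over PBS), -0.211 (LPS) and -0.125 (LPS/IFNγ). Of all tested genes, 23.3% were called higher and 24.2% lower than PBS in dsHMGB1, 26.7% and 36.2% in LPS, and 29% and 31.2% in LPS/IFNγ. All 4 JAK kinases were called higher than PBS in dsHMGB1, LPS and LPS/IFNγ, or 3, 4 and 3 of them with total-count scaling. Jak2 had the largest log2 fold changes, at 4.03, 4.98 and 5.04. Of 15 tested cytokines that signal through STATs, 13 were higher and 1, Il4, was lower than PBS in each of the 3 conditions. Il12a, Il23a, Csf2 and Csf3 had a mean of 0 normalized counts in PBS, and Ifnb1 (1.28), Il12b (1.08) and Il6 (3.56) were near 0. They were tested only because of their levels after stimulation, so their calls over PBS are no support for a change of the list. In dsHMGB1 against LPS 13 cytokines were lower and 0 higher by edgeR, beside 10.6% lower and 15.8% higher over all tested genes. Higher calls were also 0 by DESeq2 or at an unadjusted p under 0.05, and with total-count scaling 12 were lower and 1 higher. Csf2 (GM-CSF, an activator of STAT5) was lower by the most, with a log2 fold change of -4.68, followed by Il23a (-4.13), Il10 (-3.66) and Il6 (-3.45), the last 2 being activators of STAT3. Of 23 receptor chains, 12 rose and 4 fell in dsHMGB1, 12 and 4 in LPS, and 14 and 5 in LPS/IFNγ. With total-count scaling these became 10 and 8, 8 and 10, and 12 and 9, and without PBS replicate 3 they were 12 and 7, 14 and 6, and 14 and 9. Il15ra rose most in dsHMGB1 (5.20) and Il6ra, the specific chain of the IL-6 receptor, fell most (-3.03). In LPS/IFNγ over LPS, 7 receptor chains rose and 7 fell (11 and 8 without PBS replicate 3), beside 16.3% and 9.36% of all tested genes. The 4 largest called changes were Il12rb1 (2.31), Csf2rb2 (2.31), Il12rb2 (2.29) and Csf2rb (2.10). Csf2rb and Csf2rb2 are near-identical copies, so their split is uncertain.

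Among genes that STAT2 and IRF9 control, 19 of 19 were higher than PBS in dsHMGB1, LPS and LPS/IFNγ, beside 23.3%, 26.7% and 29% of all tested genes. Their medians were 5.89, 6.78 and 6.26, and total-count scaling left 19, 19 and 18. In frHMGB1 edgeR called 0 of 19, beside 1.31% higher and 5.69% lower over all tested genes. DESeq2 called 2 higher there, and edgeR 4 higher at an unadjusted p under 0.05. Without PBS replicate 3 edgeR called 8 of the 19 higher in frHMGB1, so the count of 0 rests on that library. Rsad2 (8.54), Mx1 (8.54), Cmpk2 (8.18) and Ifit1 (7.87), all induced by interferon, had the largest log2 fold changes in dsHMGB1. In dsHMGB1 against LPS, 13 of the 19 were lower and 0 higher, beside 10.6% lower and 15.8% higher over all tested genes. Their median was -0.75 (18 lower and 0 higher by DESeq2, and the same at an unadjusted p under 0.05). The count of 13 became 6 with total-count scaling and 19 without PBS replicate 3. Stat2 itself was lower in dsHMGB1 without overlap (log2 fold change -0.412). It was not called by edgeR (adjusted p = 0.0653, unadjusted 0.0187) but was by DESeq2 (adjusted p = 0.00808). In LPS/IFNγ against LPS 9 of the 19 targets were lower and 0 higher, beside 9.36% lower and 16.3% higher over all tested genes. DESeq2 gave the same counts, against 10 and 0 at an unadjusted p under 0.05 and 14 and 0 without PBS replicate 3. Genes under STAT3 and STAT5 were higher than PBS in 9 of 9 in each of the 3 conditions (medians 1.83, 2.59 and 2.03), and with total-count scaling in 8, 8 and 7, with 1 lower in LPS and in LPS/IFNγ. Ccnd2, a cyclin, had 4.04, 6.61 and 6.70, and Pim1, a kinase, 3.64, 4.68 and 4.48. In dsHMGB1 6 of the 9 were lower than in LPS and 0 higher, against 7 and 0 by DESeq2 or at an unadjusted p under 0.05, and 6 and 1 with total-count scaling.

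Targets of STAT6 did not move together. Of 9 tested, 4 rose and 1 fell in dsHMGB1, 5 and 1 in LPS, and 6 and 1 in LPS/IFNγ (medians 0.86, 1.05 and 1.60). Over all tested genes 23.3% rose and 24.2% fell in dsHMGB1, 26.7% and 36.2% in LPS, and 29% and 31.2% in LPS/IFNγ. With total-count scaling the counts of STAT6 targets became 4 and 2, 4 and 1, and 3 and 1, and without PBS replicate 3 they were 5 and 2, 5 and 1, and 6 and 1. Tgm2, a transglutaminase, rose in all 3 (2.82, 3.61 and 4.59), and Egr2, a transcription factor, fell in all 3 (-1.43, -1.87 and -3.13). The chemokine gene Ccl17 had a mean of 0.21 normalized counts in PBS, 45.8 in dsHMGB1 and 460 in LPS, but 2.11 in LPS/IFNγ. Ccl17 and Ccl24 (1.05 in PBS) were tested only because of their levels after stimulation, so their calls over PBS are no support for a change of the list. Of 5 listed targets of STAT4, Ifng and Il18r1 had too few counts to be tested (12 and 10 over all libraries). Il18rap, a chain of the IL-18 receptor, had mean normalized counts of 8.71 (SD 8.01) in PBS. It was called higher in dsHMGB1 (50.3, adjusted p = 0.00593), LPS (98.6, 0.00037) and LPS/IFNγ (2113, 1.74e-07). Whether Il18rap would have enough counts to be tested without its levels after stimulation was not tested. Il12rb2 was called in LPS/IFNγ (1777 against 294 in PBS, adjusted p = 0.00769). Tbx21, a transcription factor, had a mean of 124 in LPS/IFNγ and at most 2.76 in any other condition, so it was tested only because of its level there, and its call is no support for a change of the list. Of 15 other inhibitors of the pathway, 6 rose and 2 fell in dsHMGB1, 8 and 1 in LPS, and 10 and 2 in LPS/IFNγ (medians 0.219, 0.545 and 0.869). With total-count scaling these became 5 and 3, 6 and 5, and 6 and 6, with medians of -0.155, -0.141 and 0.206. Without PBS replicate 3 those that fell numbered 4, 4 and 5. Usp18, which limits type I interferon signalling, had the largest rise (6.48, 7.64 and 6.64), and Socs6 fell in all 3 (-1.65, -1.37 and -1.21). Socs2, the closest relative of Cish, was highest in LPS and fell from LPS to LPS/IFNγ (-2.22, adjusted p = 3.1e-05), whereas Cish was higher in LPS/IFNγ than in LPS.

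**Figure D5:**
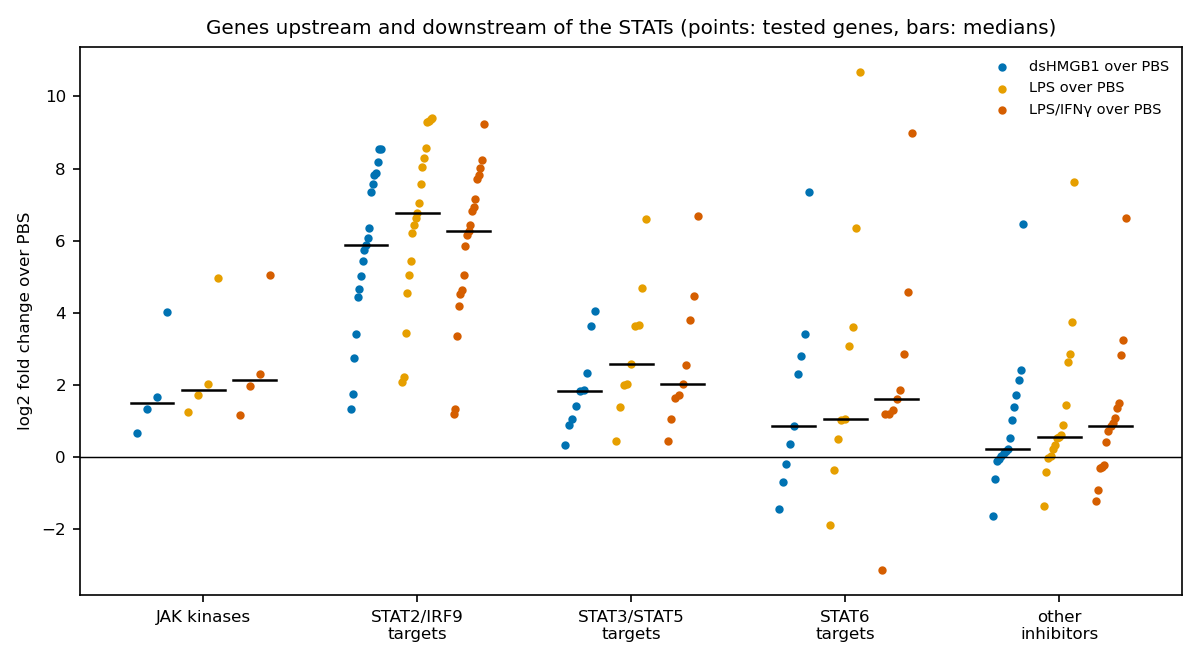
Log2 fold change over PBS of each tested gene in 5 lists (points) and the list median (bars) in dsHMGB1, LPS and LPS/IFNγ. All STAT2/IRF9 target genes lie above 0, with medians of 5.89, 6.78 and 6.26, whereas STAT6 targets and other inhibitors spread on both sides of 0.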

How the data were processed

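RNA was measured in 15 libraries, 3 for each of 5 conditions. The authors made stranded mRNA libraries, aligned the reads with STAR to GRCm38 and normalized with DESeq2. The deposited values were whole-number counts per Ensembl gene, with the counting program and its annotation not given in the sources used here. The labels gave each library its condition. Of 51763 genes, 16919 passed filterByExpr (a minimum count of 10, and 15 in total). They were tested with edgeR (version 4.0.16, TMM, quasi-likelihood F test) in 1 fit of all libraries with no covariates, Benjamini-Hochberg adjusted over all of them. Normalized counts, unshrunken fold changes and SE came from DESeq2 (version 1.42.0). TPM used the union of GENCODE M21 exons, which gave a length for 51661 genes. The fit was tested on simulated data. Counting intervals cover counting error only. Promoter windows came from RefSeq (GRCm38.p6), where 9 of 9 genes matched. Named genes were the 9 members, the 3 protein-coding genes most like each, and the called genes with the largest fold change of a list, at most 4. Members and lists were chosen with earlier results of these data known. Alternatives were another normalization, test, filter, set of genes or samples, a replicate block, leaving out each library and, added after the data were seen, total-count scaling (members and lists), edgeR's fold change and the lists without PBS replicate 3.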

Additional observations from a re-analysis of the deposited data

How the results depend on the processing

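Of 144 values per comparison (9 genes in 16 alternatives), 139 kept their direction and call in frHMGB1 over PBS, 140 in dsHMGB1 over PBS, 138 in LPS over PBS, 136 in LPS/IFNγ over PBS, 136 in dsHMGB1 over frHMGB1, 127 in dsHMGB1 over LPS, 141 in dsHMGB1 over LPS/IFNγ, 114 in LPS/IFNγ over LPS, 135 in frHMGB1 over LPS and 135 in frHMGB1 over LPS/IFNγ. Counts of called members moved by over 1.5 times in 3 comparisons. frHMGB1 over PBS had 1, and 0 with edgeR's test of a fold above 2 or with the 2 groups alone (DESeq2 called 1). dsHMGB1 over LPS had 6, and 3 with a fold above 2. LPS/IFNγ over LPS had 4, and 2 with no filter, 0 with a fold above 2, 2 with total-count scaling, 2 to 2 with 1 library left out and 2 with the replicate block, which removed Stat5b (adjusted p 0.0556) and Cish (0.0591); DESeq2 called 5.

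Replicate numbers did not pair the samples: 30 correlations of same-numbered deviations ran from -0.34 to 0.336, with 1 above 0.1. The replicate block changed no other call of a member.

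Log2 fold changes that changed sign were of genes not called in the fit of all libraries, except Stat6 in frHMGB1 over LPS/IFNγ. With total-count scaling these were Stat6 in dsHMGB1 over PBS (-0.0711), dsHMGB1 over frHMGB1 (-0.304), frHMGB1 over LPS (0.215) and frHMGB1 over LPS/IFNγ (0.203), Stat4 in dsHMGB1 over LPS (0.113) and Stat2 in dsHMGB1 over LPS/IFNγ (0.247). With protein-coding genes alone it was Stat3 in frHMGB1 over PBS (-0.00395). With 1 library left out the ranges were -0.0998 to 0.189 (Stat3) and -0.0754 to 0.258 (Stat5b) in frHMGB1 over PBS, both negative without PBS replicate 3. They were -0.581 to 0.557 for Stat4 in dsHMGB1 over LPS, and -0.0113 to 1.12 (Stat4) and -0.0333 to 0.0117 (Stat6) in LPS/IFNγ over LPS. The cause was not tested. With the longest transcript as the length, the leading STAT's share of the STAT TPM was 54.2% in PBS and 55.7% in frHMGB1 (Stat6), and that of Stat2 34.8% in LPS and 26.0% in LPS/IFNγ. Total-count scaling moved the share of higher calls among all genes from 49% to 28.1% (dsHMGB1 over PBS), 42.5% to 21.9% (LPS) and 48.2% to 25.3% (LPS/IFNγ). Depth limits Stat4 in all conditions and Cish in PBS and frHMGB1.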

Other observations

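For each of the 9 genes, the 3 protein-coding genes with the most similar pattern were found by Pearson r of log2(normalized count + 1) over the 15 libraries, among 10094 candidates whose mean was 100 normalized counts or more. The libraries of a condition share their culture pool and lie close together, so r mostly follows the 5 condition means, and it is given as a description. Stat2 was most like Ifit2 (r = 0.9987), Nlrp3 (0.9985) and Mx1 (0.9981). Socs3 was most like Oasl2 (0.9986), Nfkb2 (0.9984) and Ifi211 (0.9983), and Socs1 most like Cds1 (0.9983), Il12b (0.9977) and Igtp (0.9976). Cish went with Car13 (0.9983), Prr5l (0.9981) and Nck1 (0.9979), and Stat5a with Ccng2 (0.9982), Nup54 (0.9972) and Gypc (0.9967). Stat3 went with Pfkp (0.9971), Arhgap23 (0.9966) and Ttc39b (0.9965), Stat5b with Pabpc1 (0.9977), Psd4 (0.9961) and Kalrn (0.9957), and Stat6 with Spata2 (0.9942), Nckap1l (0.9909) and Yy1 (0.9908). Stat4, with its few counts, reached 0.8798 with Gm10053, 0.8764 with Micu3 and 0.8757 with Nkap.

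Markers of other cell types were measured in the same libraries. Neutrophil markers summed to between 1.97 and 5.56 CPM, with Ly6g, S100a9 and Mpo at 0 counts. Dendritic cell markers summed to between 3.35 and 5.17 CPM in PBS, frHMGB1 and dsHMGB1, to 7.81 to 8.62 in LPS and to 13.8 to 15 in LPS/IFNγ. They did not move together. Zbtb46 and Xcr1 were called higher than PBS in LPS (log2 fold changes 3.68 and 2.35) and LPS/IFNγ (5.08 and 2.59). Clec9a was called lower in dsHMGB1 (-3.57), LPS (-3.28) and LPS/IFNγ (-0.81), and Flt3 and Siglech had too few counts to be tested. Fibroblast markers summed to 118 to 282 CPM, a range that PBS alone covered. Their largest parts were Col1a1 and Col1a2, with means of 4657 and 4380 normalized counts in PBS and 7815 and 6740 in LPS/IFNγ, above the mean of Stat2 in PBS (2200). Col1a1, Col1a2, Col3a1 and Dcn were called higher than PBS in LPS and in LPS/IFNγ, and Dcn also in dsHMGB1. Their part in the values of the 9 genes was not tested.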
